A study of Mus musculus with 4 samples.

Results

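The 9 genes described here mark the glutamatergic neurons that leave the rhombic lip early or late in cerebellar development: the projection neurons of the cerebellar nuclei and the unipolar brush cells. They are the nucleus genes Tbr1, Lhx2, Lhx9, Meis2, Irx3 and Pou3f1, the vesicular glutamate transporter gene Slc17a6, and the brush cell genes Eomes and Lmx1a. They were chosen by name, with earlier results of these data known. An array feature was taken for a gene when its annotated symbol was that gene's symbol or one of its synonyms, which gave 12 features of 38880, or 9 genes of 19909. The Smarca5 gene encodes Snf2h, the ATPase of the ISWI complexes that slide and space nucleosomes. RNA came from cerebella of C57Bl/6 mice dissected at P0, the day of birth, and each of 4 two-colour arrays compared mice labelled Smarca5 cKO, a conditional knockout, with mice labelled wild type. Replicates 1 and 3 carried the cKO RNA in Cy5, and replicates 2 and 4, the dye flips, carried it in Cy3. There were 3 RNA samples per genotype, since replicates 3 and 4 shared a cKO sample and replicates 1 and 4 a wild-type sample. The sources used here name neither the Cre line behind the deletion nor the number of animals in an RNA sample.

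The rhombic lip is the strip of neuroepithelium at the edge of the fourth ventricle from which all glutamatergic cells of the cerebellum arise. Its first progeny migrate over the cerebellar surface to the nuclear transitory zone, switching on Lhx2, Lhx9, Meis2, Irx3 and Tbr1 on the way, and settle as the output neurons of the cerebellar nuclei. Granule cell progenitors follow, and the last to leave are the unipolar brush cells, excitatory interneurons of the granular layer that keep Eomes. At birth the nuclei are in place, while brush cells are still being produced. The order Pax6, Eomes, Tbr1 marks the passage from progenitor to postmitotic neuron in the nuclear lineage, as it does in the cerebral cortex.

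Values are printed as log2 ratios, cKO divided by wild type and centred on the median of each array. Fitted ratios come from limma with their standard error (SE), and adjusted p-values are Benjamini-Hochberg values over all genes, or over all features with a symbol where a feature is named. A ratio holds no level, so the arrays do not show how strongly a gene was expressed, nor whether the tissue expressed its defining markers. In whole tissue, fewer cells of a type and less RNA per cell cannot be told apart. The log base, taken as 2, and the direction, which is likely from the order of the channels in the labels, are not stated with the values. If the base were e, every fold given would be too small.

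None of the 9 genes was called at an adjusted p under 0.05 (limma), and neither was any other gene: 0 of 19909, or 0%. The smallest adjusted p over all genes was 1. The largest ratio of the group was that of Eomes, which lay below 0 on every array. The other 8 genes had fitted ratios from -0.48 to 0.31, and each of their 95% intervals held 0. An unadjusted p under 0.05 was reached by 1 member (Eomes) of 9, against 310 genes, or 1.56%, of all genes. Ratios had 1 sign on all 4 arrays in 1 member of 9, where 11.6% of all genes did. Fitted ratios lay above 0 in 5 members and below 0 in 4, beside 50.9% of all genes below 0, and the median of the members was 0.04 against 0.00 over all genes.

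**Figure D1:**
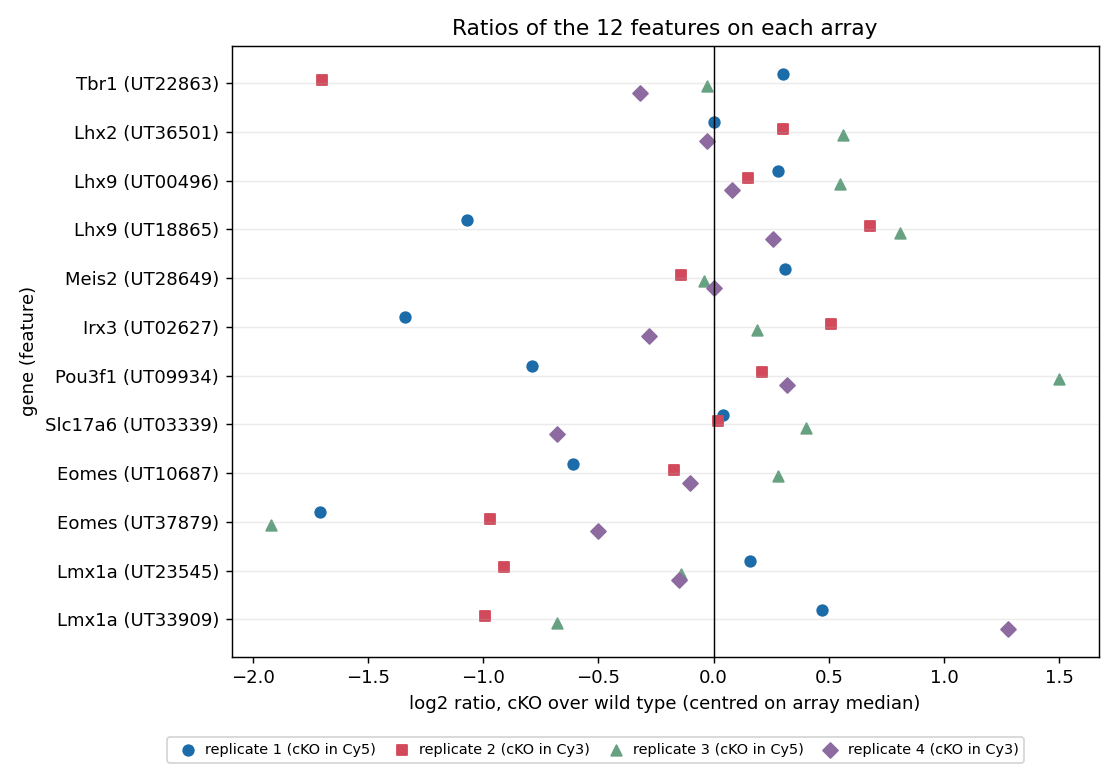
Log2 ratio of cKO over wild type (x axis) for each of the 12 features (y axis, gene and feature ID), with 1 point per array. The Eomes feature UT37879 lies below 0 on all 4 arrays and the Lhx9 feature UT00496 above 0 on all 4, while the other 10 features have points on both sides of 0 or at it.

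Eomes, also called Tbr2, encodes the T-box factor that defines unipolar brush cells and is passed through briefly by precursors of the nuclei. It was represented by 2 features. Feature UT37879 read -1.71, -0.97, -1.92 and -0.50 on replicates 1 to 4. These values lay at percentiles 1.75, 4.94, 0.295 and 15.5 among the features with a symbol on the same array, so this feature was near the bottom of the array on replicates 1 and 3. Feature UT10687 read -0.61, -0.17, 0.28 and -0.10, at percentiles 16.0, 34.9, 75.4 and 41.8, so it was low on replicate 1 and above the middle on replicate 3. UT37879 was lower than UT10687 on 4 of 4 arrays, by 0.40 to 2.20.

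UT37879 was 2.89-fold lower in cKO by the fit, at -1.53 ± 0.52 (SE), with a 95% interval from -2.80 to -0.26 (limma p 0.0255, adjusted p 1). That of UT10687 was -0.17 ± 0.26 (SE), with an interval from -0.81 to 0.48 (limma p 0.549). Among the 12 member features 1 had an unadjusted p under 0.05, where 1.37% of all features with a symbol did. A single sign on all 4 arrays was found in 2 of the 12, beside 10.9% of all features. With its features averaged, Eomes read -1.16, -0.57, -0.82 and -0.30 on replicates 1 to 4, a mean of -0.71 ± 0.37 (SD, n = 4 arrays). The fitted ratio was -0.85 ± 0.32 (SE), or 1.80-fold lower, with an interval from -1.63 to -0.07 (limma p 0.0375, adjusted p 1). Without replicate 1 it was -0.56 (limma p 0.0853), without replicate 2 -0.99 (p 0.0702) and without replicate 3 -0.66 (p 0.117), each with an unadjusted p above 0.05. Without replicate 4 it was -0.85 (p 0.00835), with arrays fitted as independent -0.71 (p 0.0087) and with a dye term -0.75 (p 0.0111). With the dye-flip columns turned it was -0.47 (limma p 0.446). That turn reverses replicate 2 in the average of replicates 1 to 3. A ratio with 1 sign on these arrays, as for Eomes, therefore shrinks by arithmetic. The adjusted p was 0.977 or more in all of these fits.

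The 2 Eomes features differed more than features of a gene usually did. Their means over the arrays were 1.12 apart, where the median gap was 0.22 among 4467 genes with 2 features, and a gap of that size or more was found in 1.03% of those genes. The gap was 0.28 for Lmx1a, which 39.7% of such genes reached, and 0.10 for Lhx9, which 75.5% reached. The probe sequences were not used here, so which part of the Eomes transcript each feature reads is not known here, and a part of the probes in the gap was not tested.

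**Figure D2:**
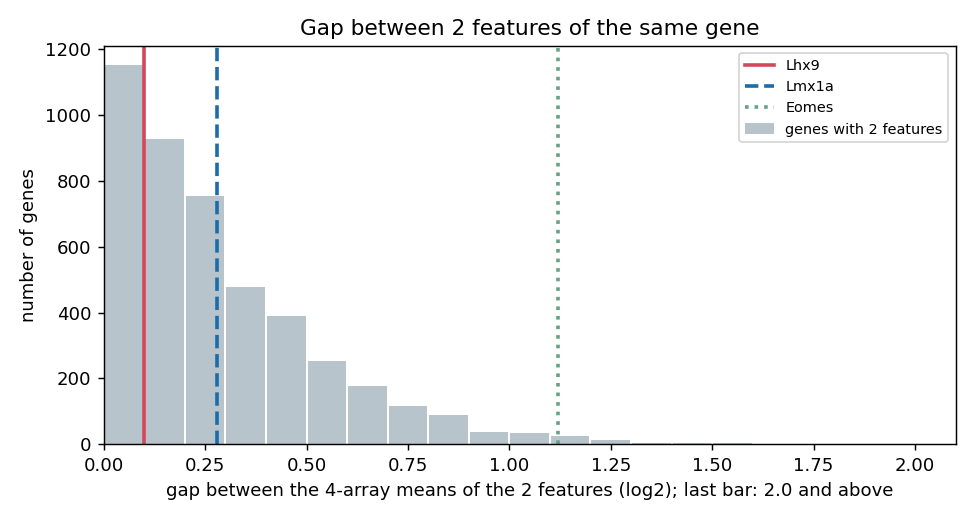
Number of genes (y axis) by the gap between the 4-array means of their 2 features (x axis, log2, bars of width 0.1), over 4467 genes with 2 features. Vertical lines mark Lhx9 at 0.10, Lmx1a at 0.28 and Eomes at 1.12, where few genes are left.

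Lmx1a encodes a LIM-homeodomain factor of the roof plate and rhombic lip that brush cells keep after birth. Its feature UT23545 read 0.16, -0.91, -0.14 and -0.15 on replicates 1 to 4. Its feature UT33909 read 0.47, -0.99, -0.68 and 1.28. Both were lowest on replicate 2, at percentiles 5.71 and 4.72 of the array, and they parted on replicate 4, where the second stood at percentile 97.6. The averaged ratio was -0.35 ± 0.35 (SE), with an interval from -1.22 to 0.52 (limma p 0.364). It was -0.05 without replicate 2, -0.16 without replicate 3 and 0.28 with the dye-flip columns turned. Both brush cell factors had fitted ratios below 0, but on replicate 1, where Eomes read -1.16, Lmx1a read 0.32.

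Effector genes of mature unipolar brush cells were followed through 4 genes, Calb2, Grm2, Plcb1 and Plcb4. Their median ratio was 0.11, with 3 above 0, and 0 of the 4 had an unadjusted p under 0.05. The ratios ran from -0.02 ± 0.31 (SE) for the phospholipase gene Plcb4, which was -0.26 without replicate 1 and 0.50 with dye-flip columns turned, to 0.22 ± 0.24 for Plcb1.

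Tbr1, the T-box paralog of Eomes that marks postmitotic projection neurons, in the cerebellum those of the medial nucleus, had 1 feature. It read 0.30, -1.70, -0.03 and -0.32 on replicates 1 to 4. The low value came from replicate 2 alone, where it stood at percentile 0.877 of the array, and the other 3 arrays lay on both sides of 0. The fitted ratio was -0.48 ± 0.44 (SE), with an interval from -1.55 to 0.60 (limma p 0.319). Without replicate 2 it was 0.13, and with the dye-flip columns turned 0.66. The mean was 0.14 over replicates 1 and 3 and -1.01 over replicates 2 and 4, the dye flips. The ratio was -0.08 ± 0.33 (SE) for Tbx21, the remaining gene of this T-box subfamily and a regulator of T helper cells.

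Lhx2 and Lhx9 are paralogous LIM-homeodomain genes that nuclear precursors express as they leave the rhombic lip. The Lhx2 feature read 0.00, 0.30, 0.56 and -0.03 on replicates 1 to 4, with a fitted ratio of 0.29 ± 0.24 (SE, interval -0.30 to 0.87, limma p 0.272). Its values on replicates 1 and 4, the arrays that shared a wild-type sample, were next to 0. Lhx9 had 1 feature under its own symbol, UT00496, and 1 under the clone name 3110009O07Rik, UT18865. UT00496 read 0.28, 0.15, 0.55 and 0.08, above 0 on every array. UT18865 read -1.07, 0.68, 0.81 and 0.26, above 0 on all arrays but replicate 1, where it stood at percentile 6.48. The averaged ratio of Lhx9 was 0.23 ± 0.27 (SE), with an interval from -0.43 to 0.89 (limma p 0.419). It was 0.42 without replicate 1 and -0.04 with dye-flip columns turned.

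Meis2 encodes a TALE homeodomain cofactor of Hox and Pax proteins that stays on in neurons of the nuclei. It was represented by 1 feature, under the older name Mrg1, which is also a synonym of Cited2, so the gene behind it is uncertain. That feature read 0.31, -0.14, -0.04 and 0.00 on replicates 1 to 4. Its fitted ratio was 0.04 ± 0.21 (SE), with the narrowest interval of the group, from -0.48 to 0.56 (limma p 0.844). A change of more than 1.48-fold in either direction lies outside that interval. It was -0.07 without replicate 1. For the paralog Meis1 it was -0.19 ± 0.25 (SE).

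Irx3, an Iroquois homeodomain gene expressed in the nuclear transitory zone, read -1.34, 0.51, 0.19 and -0.28 on replicates 1 to 4. It was low on replicate 1, at percentile 3.56, and the other arrays lay on both sides of 0. The fitted ratio was -0.21 ± 0.40 (SE, interval -1.19 to 0.77, limma p 0.611), and without replicate 1 it was 0.19. Pou3f1, which encodes a POU-domain factor also called Oct6 and is best known in Schwann cells, read -0.79, 0.21, 1.50 and 0.32. Its arrays spanned percentile 11.2 on replicate 1 to percentile 99.3 on replicate 3. The fitted ratio of Pou3f1 was 0.31 ± 0.43 (SE, interval -0.76 to 1.37, limma p 0.506), and -0.04 without replicate 3.

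Slc17a6 encodes the vesicular glutamate transporter VGLUT2, which loads synaptic vesicles in neurons of the cerebellar nuclei and in young granule cells. It read 0.04, 0.02, 0.40 and -0.68 on replicates 1 to 4. The fitted ratio was 0.15 ± 0.37 (SE, interval -0.75 to 1.06, limma p 0.69), which was -0.06 with arrays fitted as independent, -0.07 without replicate 1 and -0.17 without replicate 3. Slc17a7, the gene of VGLUT1, the transporter that granule cells take up as they mature, read -1.34, -0.38, -0.91 and -1.05 on replicates 1 to 4, below 0 on every array. Its fitted ratio was -0.88 ± 0.25 (SE, limma p 0.0136, adjusted p 1), with -0.72 without replicate 1 (limma p 0.037) and -0.62 with dye-flip columns turned (limma p 0.483). The difference between the transporter genes was not tested.

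**Figure D3:**
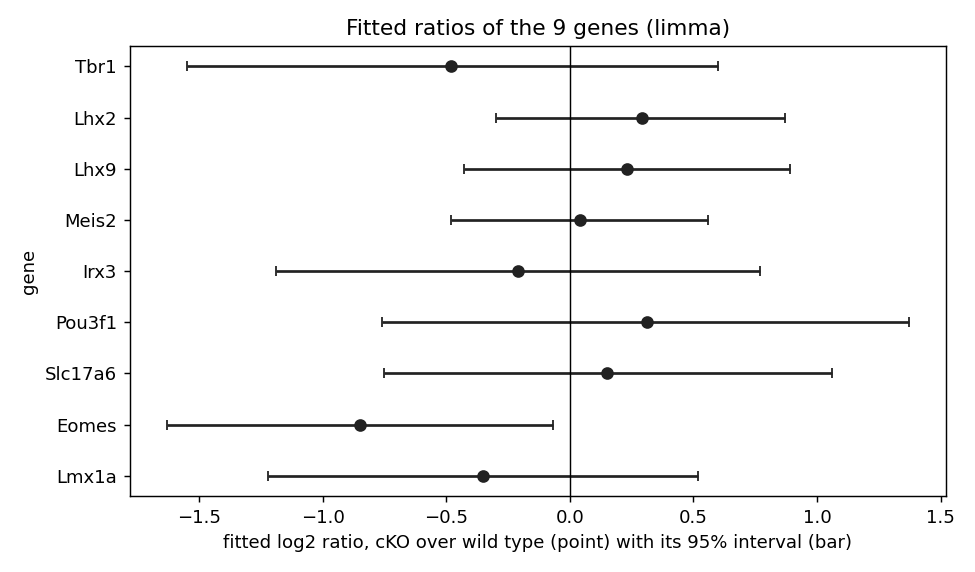
Fitted log2 ratio of cKO over wild type (x axis) for each of the 9 genes (y axis), with points for the limma estimate and bars for its 95% interval. The interval of Eomes, from -1.63 to -0.07, ends just below 0, and those of the other 8 genes hold 0.

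The members differed in how far their arrays lay apart. The SD over the 4 arrays had a median of 0.46 among the 9 members, against 0.39 over all genes, and 6 of the 9 lay above that value. The SDs of Pou3f1 (0.94), Tbr1 (0.88) and Irx3 (0.81) were larger than those of 92%, 90.3% and 87.7% of all genes. The intervals of Lhx2, Lhx9 and Meis2, 3 of the 9, lay within -1 to 1, so for the other 6 a 2-fold difference in at least 1 direction lay inside the interval. The array medians of the 9 genes were 0.00, 0.02, 0.19 and -0.03 on replicates 1 to 4, with 4, 5, 5 and 3 genes above 0. Within the dye orientations Eomes had a mean of -0.99 (cKO in Cy5) and -0.43 (cKO in Cy3).

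The paralogs of the members were followed as a wider list of 20 genes, of which 19 were measured. Their median ratio was -0.05, with 7 above 0 and 12 below, and Slc17a7 was the only one of the 19 with an unadjusted p under 0.05, which 1.56% of all genes had. The highest ratio was that of Irx5, a neighbour of Irx3 in the same Iroquois cluster, at 0.41 ± 0.26 (SE, limma p 0.172), and 0.22 without replicate 1. It lay above 0 on all 4 arrays, at 0.65, 0.02, 0.55 and 0.19, while Irx3 was far below 0 on the first of them.

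Genes of the rhombic lip and the early glutamatergic lineage had a median of -0.22 over 10 measured genes, against 0.00 over all genes. Of these 8 lay below 0, where 50.9% of all genes did, and 4 had 1 sign on every array, where 11.6% did. An unadjusted p under 0.05 was found in 2 of the 10, beside 1.56% of all genes. The list was chosen with earlier results of these data known, so these shares are no test of it. Pax6, the paired-box factor upstream of Eomes in the sequence given above, read -0.89, -0.40, -0.49 and -0.94 on replicates 1 to 4. It was fitted at -0.59 ± 0.23 (SE, limma p 0.0402, adjusted p 1), and at -0.58 without replicate 1 (limma p 0.0783). Neurod1, a bHLH gene of neuronal differentiation, had the lowest ratio of the list, at -0.95 ± 0.28 (SE, limma p 0.0144, adjusted p 1), and -1.07 without replicate 1 (limma p 0.018). With dye-flip columns turned Pax6 had -0.33 and Neurod1 -0.43. Reln, the gene of the secreted guidance protein reelin, which nuclear precursors also express, had -0.01 ± 0.27 (SE), and Olig3, a bHLH gene of the rhombic lip, had the highest ratio at 0.24 ± 0.59. Olig3 read 0.87 without replicate 1 and -0.52 with dye-flip columns turned. Pax6 and Neurod1 are also expressed by granule cells, which outnumber the cells of the nuclei. The part of either cell type in these ratios was not tested.

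Inhibitory neurons, those of the nuclei among them, were followed through 6 genes, all measured. Most of these genes are shared with other inhibitory cells, so the list does not single out the nuclei. The median was -0.03, with 2 above 0, and 0 had an unadjusted p under 0.05. Without replicate 1 the median was 0.09, with 4 of 6 above 0. The lowest was the GABA synthesis gene Gad2 at -0.05 ± 0.28 (SE), and -0.32 without replicate 1. The highest was the glycine transporter gene Slc6a5 at 0.54 ± 1.13 (SE), which read 3.92 on replicate 1 and -0.55, -1.75 and -0.30 on the others, and had -0.82 without replicate 1. Sox14, a factor of the nucleo-olivary neurons, had -0.03 ± 0.30.

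Replicate 1 stood apart in genes of the tissue behind the cerebellum. The 10 hindbrain Hox genes had a mean of 2.88 on that array, with 9 of 10 above 0, against -0.24, -0.57 and -0.30 on replicates 2 to 4. Their fitted ratios ran from -0.01 for Hoxd3 to 1.41 for Hoxa5, which was -0.47 without replicate 1. The 9 members averaged -0.30 on replicate 1, but their middle value there was 0.00, that of Lhx2. The 4 genes below 0 were Irx3 at -1.34, Eomes at -1.16, Pou3f1 at -0.79 and Lhx9 at -0.40. The 4 above 0 were Lmx1a at 0.32, Meis2 at 0.31, Tbr1 at 0.30 and Slc17a6 at 0.04. Without replicate 1 the median of the members was -0.07, with 4 genes above 0 and 5 below, and 0 had an unadjusted p under 0.05. The part of hindbrain tissue in any member's ratio was not tested.

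**Figure D4:**
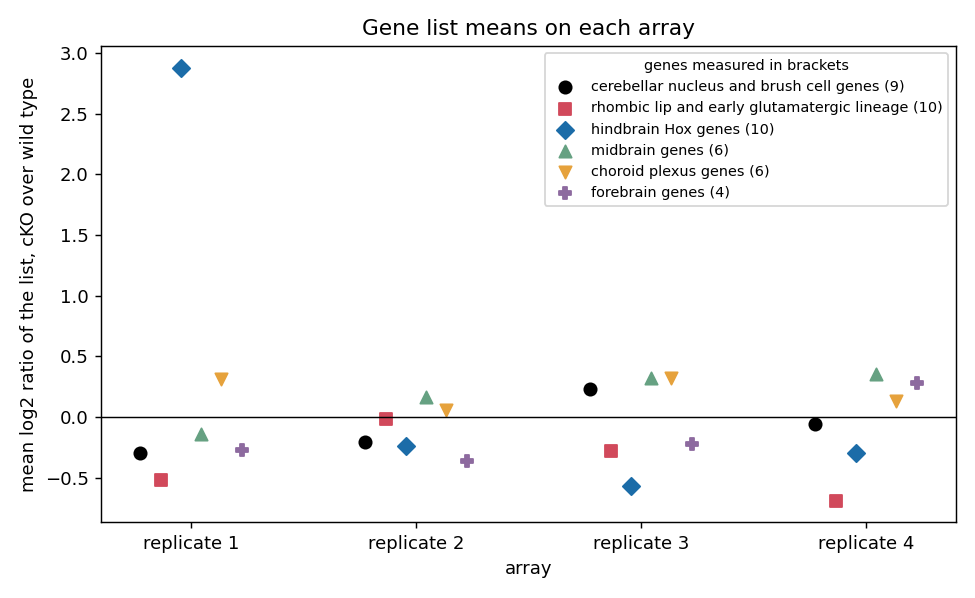
Mean log2 ratio of cKO over wild type (y axis) of 6 gene lists on each array (x axis). The hindbrain Hox genes stand at 2.88 on replicate 1 and at -0.57 to -0.24 elsewhere, while the means of the 9 members stay between -0.30 and 0.23.

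Other tissues that share these genes were followed in the same way. Forebrain genes, 4 of 6 measured, had a median of -0.24, from -0.62 for Emx1 to -0.02 for Emx2, which were -0.13 and 0.02 without replicate 1. Midbrain genes had a median of 0.11 over 6 genes, with 3 above 0 and 3 below. Their ratios ran from -0.26 for Otx2, which was 0.18 without replicate 1, to 0.44 for Pou4f1, which was -0.33 with dye-flip columns turned. Without replicate 1 all 6 midbrain genes lay above 0, with a median of 0.20, and 0 had an unadjusted limma p under 0.05. Choroid plexus genes had a median of 0.10 over 6 of 7 genes. Their ratios ran from -0.07 for the transthyretin gene Ttr, which was 0.03 with dye-flip columns turned, to 0.83 for Kl. Kl read 2.74 on replicate 1 and was -0.36 without it. The 5 genes of the cerebellar territory had a median of 0.00, from -0.31 for Pax2, which was 0.03 without replicate 1, to 0.03 for En1, which was -0.11 with dye-flip columns turned. Of these 31 genes measured in the 5 marker lists, Hox genes included, 0 had an unadjusted p under 0.05. Their part in the ratios of the members was not tested.

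The targeted gene was read by 2 features. The feature named Smarca5 read -0.36, -1.16, -1.43 and -0.75 on replicates 1 to 4, and the feature under the clone name D030040M08Rik, now a synonym, read 0.01, 0.34, 0.10 and 0.47. With both averaged, the Smarca5 ratio was fitted at -0.42 ± 0.23 (SE, limma p 0.118). The first feature lay below 0 on all 4 arrays and the second above 0 on all 4. Both were known when the direction of the ratios was taken from the labels.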

How the data were processed

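Two-colour array values were taken as the authors deposited them, as 1 log ratio per feature and array, read here as log2. Normalization by the authors is not given in the sources used here, and the deposited medians lay between -0.02 and 0.01. No intensities were used, so dim features could not be filtered. The number of arrays and of RNA samples limits the precision. The sign of 50 unnamed features past 3 on every array followed the dye (medians -7.02, 7.04, -6.38 and 6.52). A ratio of 1 fixed dye over the other would keep its sign, so the columns were taken as genotype ratios, with cKO, the second channel in the labels, over wild type.

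The platform annotation named 30457 features. Of 21476 symbols, 12795 were current in RefSeq (GRCm38.p6, used for names only), 8317 were replaced through a synonym of 1 gene and 364 kept. Features whose symbol is another gene's current name (Lim2, Sst) were left out of the members. Each array's median was subtracted, and features were averaged by gene. Genes were fitted with limma 3.58.1 in R 4.3.3 (lmFit and eBayes, two-sided, intercept alone). A correlation of 0.5 was set between arrays with a common RNA sample, so the fitted ratio averages replicates 1 to 3, while replicate 4 enters the SE alone. Measured across genes, those correlations were 0.0124 and -0.0443, so the 0.5 was not borne out. The p-values and intervals depend on it and may be poorly calibrated. With it 310 genes, or 1.56%, had an unadjusted limma p under 0.05, against 995 with arrays fitted as independent. With 3 RNA samples per genotype, p-values measure the spread between these samples and arrays, which may be technical. The named genes were all members, and of each other list its highest and lowest gene and any with an unadjusted p under 0.05. Other genes, such as Tbx21, Meis1, Sox14 and Reln, were added after their values were seen. The members and lists were chosen with earlier results of these data known. Alternatives changed the array correlation, column direction, dye term, names, feature averaging, centring, scale and arrays used.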

Additional observations from a re-analysis of the deposited data

Results flagged for a closer look

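Of 24 values examined over the 4 arrays (the 12 features, the genes with 2 features and the lists beside the members), 1 had an array far from the others. It was the mean of the 10 hindbrain Hox genes, at 2.88 on replicate 1 and -0.24, -0.57 and -0.30 on replicates 2 to 4. The gap from replicate 1 to the nearest array was 0.904 of the range, above Dixon's 95% limit for 4 values. Chance would give about 1.2 such values among 24 picked blind. The lists were chosen with earlier results of these data known, so that figure is no test of the Hox genes. None of the 12 member features and none of the 3 averaged members stood out in this way.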

How the results depend on the processing

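The counts of called genes and called members were 0 under all 12 alternatives. The number of genes with an unadjusted p under 0.05 was 310, and became 995 with arrays fitted as independent, 621 with a dye term and 139 to 934 when an array was left out. The lowest count was without replicate 2 and the highest without replicate 4. Members with such a p numbered 1, and 0 with dye-flip columns turned and 0 to 1 when an array was left out, the 1 being without replicate 4. Of 112 alternative values of the 9 ratios, 102 kept their direction and 10 were reversed. Part of the 102 could not differ from the main fit. Replicate 4 does not enter the fitted ratio, so leaving it out repeats the ratio. The median of 1 or 2 features equals their mean, and a gene with 1 feature is repeated when features are fitted singly. The count is therefore no measure of how stable the ratios were. Turning the dye-flip columns, against the direction read from the unnamed features that followed the dye, gave 0.66 for Tbr1, -0.04 for Lhx9 and 0.28 for Lmx1a. Fitting arrays as independent gave -0.06 for Slc17a6. Leaving out an array gave -0.83 to 0.13 for Tbr1, -0.07 to 0.14 for Meis2, -0.17 to 0.22 for Slc17a6, -0.57 to 0.19 for Irx3 and -0.04 to 0.61 for Pou3f1. The ratio of Eomes stayed below 0 throughout, from -1.53 to -0.17 for its single features and -0.99 to -0.56 when an array was left out. Lhx2 stayed above 0, from 0.09 to 0.31. The sign of Slc17a6 turned in fits that let replicate 4, at -0.68, enter the ratio, which the main fit does not. Why single arrays differed was not tested. The fit was already paired, because each array holds both genotypes and the ratio is the pair.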
